A study of Mus musculus with 2 samples.

Results

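The genes described are 9 of the retinoid pathway: Rbp4, the carrier of retinol in plasma; Aldh1a1, Aldh1a2 and Aldh1a3, the enzymes that oxidise retinal to retinoic acid; Crabp1 and Crabp2, which bind retinoic acid in the cytosol; and Rara, Rarb and Rarg, the nuclear receptors for it. They were found by symbol in both count matrices, 9 of 32286 features, and each symbol matched 1 row. The list was chosen by role in the pathway and with earlier results of these data known, among them the chase over pulse ratio of Rbp4 in adipogenic CAR cells, so these values helped to choose it. The chase over pulse values and the values by cell class are therefore given as descriptions, without a test.

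The cells came from femur and tibia of male Adipoq-CreERT2;Ai9 mice, in which Cre recombinase is made under the control of the adiponectin gene Adipoq and becomes active after tamoxifen, so that cells with an active Adipoq promoter at that time switch on the red reporter tdTomato and pass it on to their descendants. The chase library was made 4 weeks after, and the pulse library 24 h after, tamoxifen given on 3 consecutive days at 8 weeks of age. Both groups carry the same alleles and received the same agent, 4 mice were used in all, and how many went into each library is not stated. The brightly tdTomato+ fraction of the digested endosteal bone, which was 0.29% of chase and 0.01% of pulse cells, was sequenced as 1 droplet library per group, so the spread between animals cannot be seen, no p-value can be given and a difference between the groups cannot be told apart from a difference between 2 libraries.

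Vitamin A reaches cells as retinol, which is oxidised to retinal and then, by the Aldh1a enzymes, to retinoic acid. Retinoic acid binds receptors of the Rar family, which sit on DNA together with Rxr partners at paired short motifs, and enzymes of the Cyp26 family clear it. CXCL12-abundant reticular (CAR) cells are marrow stromal cells that support blood formation and hold progenitors of fat and bone, and retinoic acid is known to bear on both lineages.

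After filtering, 8335 chase cells and 9212 pulse cells were kept, with medians of 7489 and 7772.5 UMIs (unique molecular identifiers, counted transcript molecules) per cell. Clustering with the 9 genes left out of the variable genes gave adipogenic CAR-like cells (3285 chase, 3209 pulse), osteogenic CAR-like cells (569 chase, 868 pulse), osteoblast-like cells (302 chase, 385 pulse) and endothelial-like cells (468 chase, 491 pulse), and in each of these classes 8 of 8 markers lay at least 2-fold above the other cells of both libraries. The same markers were used to name the clusters, so this count describes the classes and does not test their names. Blood-like cells were also present in both libraries in spite of the sort. The libraries shared 52 cell barcodes, of which 20 were kept in both. Within the adipogenic CAR-like class the clusters split by library: the Fmo2-led cluster held 2416 chase and 103 pulse cells, and the Tnfsf11-led and Rbp4-led clusters held 69 and 70 chase cells against 1917 and 1033 pulse cells.

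Levels are UMIs of a gene scaled to 1000000 UMIs of the class (CPM), with exact 95% Poisson intervals, which cover counting error only. A ratio was called when it was at least 1.5-fold, its exact 95% interval excluded 1 and the gene had at least 50 UMIs over both sides. Transcripts were counted from their 3' ends, and levels are compared for a gene between cells and not between genes.

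Promoter sequences are shown first because Rbp4 and Aldh1a2 were both lower in the chase library and Rarb is known as a direct target of its own protein family. They are from RefSeq (GRCm38.p6), run 5' to 3' on the gene's strand, and cover 250 bases before to 50 after a listed start site. A gene can have several such sites, and a site can lie inside the gene. Capitals mark the core motif of these receptors on either strand: the consensus AGGTCA, the variant written AGTTCA, a further one, GGGTCA, and lastly GGTTCA. At least 1 of them occurs in 43.7% of 32851 promoters. In Rarb (chr14:16575427-16575726, minus strand) 2 of 3 core motifs form the direct repeat spaced by 5 bases that is the classical retinoic acid receptor element, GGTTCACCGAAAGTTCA, at position -53 from the listed start site. That site lies inside the annotated gene, which runs from 16430839 to 16819156. Such a repeat occurs in 32 of the promoters (0.0974%), and repeats spaced by 1 and by 2 in 0.222% and 0.268%. No core motif was found in the Aldh1a2 window (chr9:71215539-71215838, plus strand), and 1, on the opposite strand, in the upstream of 2 Rbp4 windows (chr19:38125272-38125571, minus strand), which is printed; the other Rbp4 window (chr19:38124762-38125061) held none. Of the 9 genes, 7 had an entry, and none of the other windows held a direct repeat of these spacings. A match describes letters only.
Rarb promoter: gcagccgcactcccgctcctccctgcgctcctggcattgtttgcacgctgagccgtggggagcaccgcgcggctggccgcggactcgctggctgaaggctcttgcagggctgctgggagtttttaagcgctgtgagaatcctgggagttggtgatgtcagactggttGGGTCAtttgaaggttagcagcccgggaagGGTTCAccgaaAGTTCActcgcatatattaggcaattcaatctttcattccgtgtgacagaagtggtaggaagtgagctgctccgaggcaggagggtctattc
Aldh1a2 promoter: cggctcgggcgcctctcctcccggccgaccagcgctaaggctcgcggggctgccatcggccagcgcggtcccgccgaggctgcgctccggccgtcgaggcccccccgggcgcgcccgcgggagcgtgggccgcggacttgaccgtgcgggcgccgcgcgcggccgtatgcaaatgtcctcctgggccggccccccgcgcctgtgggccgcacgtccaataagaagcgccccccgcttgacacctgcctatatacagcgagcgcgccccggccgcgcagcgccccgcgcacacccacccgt
Rbp4 promoter: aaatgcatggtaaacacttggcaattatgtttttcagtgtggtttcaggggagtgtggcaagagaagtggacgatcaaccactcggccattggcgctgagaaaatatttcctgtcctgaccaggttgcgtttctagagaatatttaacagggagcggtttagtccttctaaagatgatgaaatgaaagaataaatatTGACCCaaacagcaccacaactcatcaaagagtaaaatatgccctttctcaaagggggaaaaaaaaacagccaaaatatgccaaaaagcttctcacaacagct

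Rbp4 lies on chromosome 19 (38116629 to 38125281, minus strand, GRCm38). In adipogenic CAR-like cells it had 664 UMIs, 30.6 CPM (28.3 to 33.0), in the chase library, against 3551 UMIs, 135 CPM (130 to 139), in the pulse library. The chase over pulse ratio was 0.227 (0.208 to 0.246), which is 4.41-fold lower. Among 12403 genes measured in this class, 6.31% were called lower and 7.47% higher, and the median log2 ratio of all of them was -0.02. The retinol carrier thus lay well below its pulse level, with intervals that did not overlap.

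After each cell was thinned to 2000 UMIs, at least 1 Rbp4 UMI was found in 5.97% (5.16 to 6.87) of chase adipogenic CAR-like cells and 17.8% (16.4 to 19.2) of pulse cells. The shares before thinning were 15.3% and 42.9%, at median depths of 6451 and 8000 UMIs, and thinning left out 237 chase and 131 pulse cells with fewer than 2000. In T, NK and B cells, which should lack the gene, the thinned shares were 0.209% in chase and 1.47% in pulse, at median depths of 3793 and 2452 UMIs. The CAR shares lay far above that background in both libraries, and the background itself was lower in chase.

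Aldh1a2, the retinal dehydrogenase needed for retinoic acid synthesis in the embryo, lies on chromosome 9 (71215789 to 71296243, plus strand). It had 4068 UMIs, 187 CPM (182 to 193), in chase adipogenic CAR-like cells and 11727 UMIs, 445 CPM (437 to 453), in pulse cells. The ratio was 0.421 (0.406 to 0.436). The thinned share of cells with the transcript was 27.4% (25.8 to 29.0) in chase and 45.5% (43.7 to 47.3) in pulse, against 0.418% and 2.27% in T, NK and B cells. The synthesis enzyme was therefore lower per class total and found in fewer cells, as was Rbp4.

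Rbp4 and Aldh1a2 were found together about as often as their separate shares give. In thinned adipogenic CAR-like cells, both were found in 1.64% of chase cells, 1.00 times the product of their separate shares, and in 8.41% of pulse cells, 1.04 times the product.

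The other synthesis enzymes were scarce in the stroma. Aldh1a3 (chromosome 7, 66390890 to 66427517) had 46 UMIs, 2.12 CPM (1.55 to 2.82), in chase and 73 UMIs, 2.77 CPM (2.17 to 3.48), in pulse adipogenic CAR-like cells, with a ratio of 0.764 (0.516 to 1.12). Aldh1a1 (chromosome 19, 20492715 to 20643465) had 6 UMIs in each library there, too few for a ratio. Its level was 95.2 CPM (79.8 to 113) in chase erythroid-like cells and 90.4 CPM (75.1 to 108) in pulse erythroid-like cells, a ratio of 1.05 (0.818 to 1.36). A small chase cluster of 25 pericyte or smooth muscle-like cells held 19 Aldh1a1 UMIs, 76.5 CPM (46.1 to 120). Aldh1a1 thus stood in erythroid-like cells and in this pericyte or smooth muscle-like cluster, with overlapping intervals, and was scarce in adipogenic CAR-like cells. Aldh1a2 had 3 UMIs in chase and 51 in pulse erythroid-like cells.

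Of the binding proteins, Crabp2 (chromosome 3, 87948666 to 87953376), which carries retinoic acid to the receptors, had 7 UMIs, 0.322 CPM (0.130 to 0.664), in chase adipogenic CAR-like cells and 62 UMIs, 2.35 CPM (1.80 to 3.02), in pulse cells. The ratio was 0.137 (0.0529 to 0.299), from a level under 3 CPM in both libraries. All 62 pulse UMIs lay in the Tnfsf11-led cluster, with 44, and the Rbp4-led cluster, with 18. These clusters also held 1917 and 1033 of the 3209 pulse cells of the class, so the count lies near their share of cells. Crabp1 (chromosome 9, 54764748 to 54773110) gave 0 UMIs in this class in both libraries, which allows up to 0.138 CPM in chase and 0.114 CPM in pulse, and 1 UMI in all kept cells, in a pulse osteoblast-like cell.

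The receptors were close to level between the libraries. Rara (chromosome 11, 98927818 to 98974942) was at 33.8 CPM (31.4 to 36.4) in chase and 40.9 CPM (38.5 to 43.4) in pulse adipogenic CAR-like cells, a ratio of 0.827 (0.752 to 0.910) that lay below 1 but short of 1.5-fold. Rarg (chromosome 15, 102234938 to 102257517), a receptor known from cartilage, was at 37.7 CPM (35.2 to 40.4) in chase and 36.1 CPM (33.8 to 38.5) in pulse, a ratio of 1.04 (0.95 to 1.15). Rarb (chromosome 14, 16430839 to 16819156), which holds the receptor element printed above, had 79 and 76 UMIs, 3.64 CPM in chase and 2.89 CPM in pulse, with a ratio of 1.26 (0.908 to 1.75). Of the 9 genes, 7 were measured in this class; 3 were called lower (Rbp4, Aldh1a2 and Crabp2), none higher and 4 neither.

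**Figure D1:**
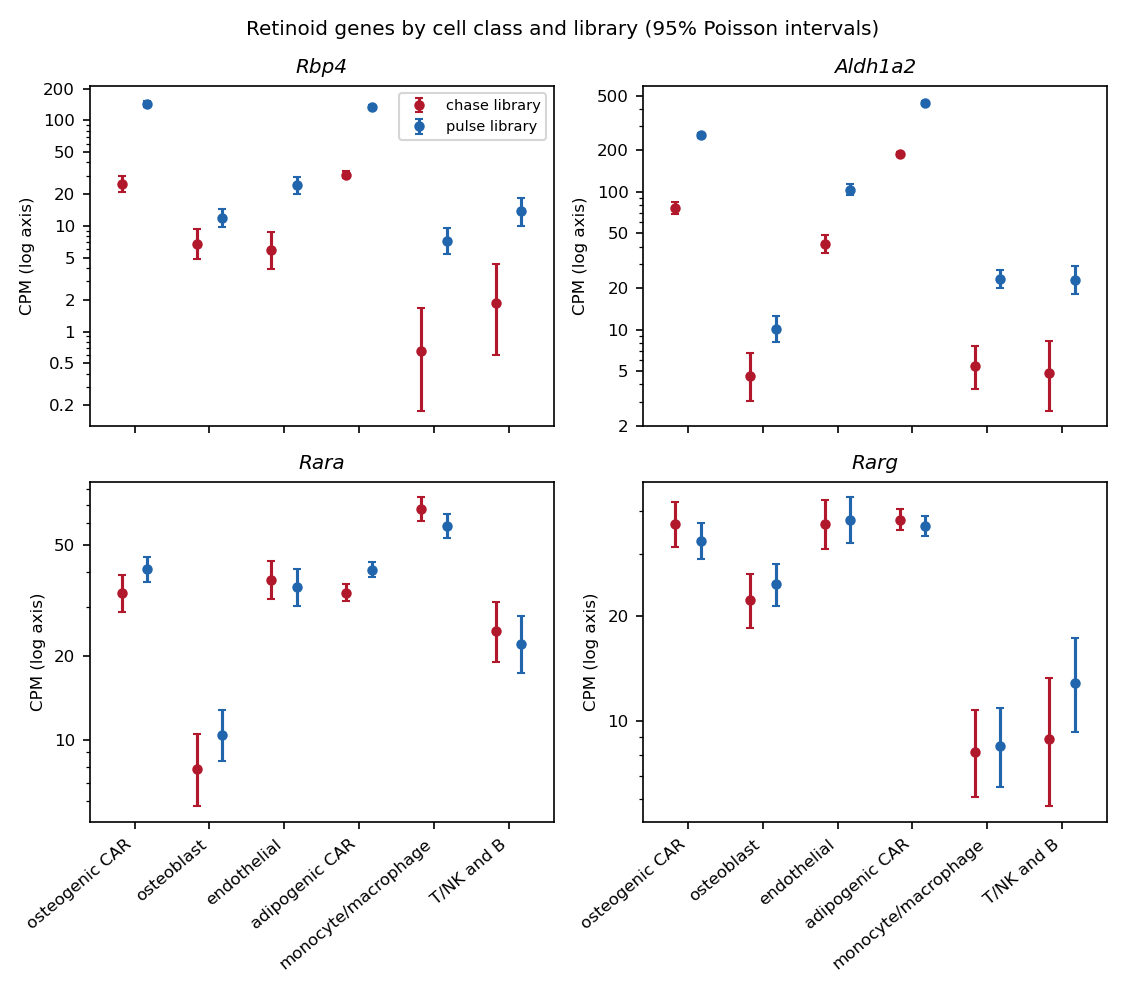
Levels of Rbp4, Aldh1a2, Rara and Rarg in CPM (log axes) by cell class, chase (red, left) and pulse (blue, right), 1 library each; points are class sums and bars are 95% Poisson intervals. Rbp4 and Aldh1a2 were lower in chase in each of the 6 classes drawn, at 30.6 and 187 CPM in chase against 135 and 445 CPM in pulse adipogenic CAR-like cells, whereas the Rarg intervals of the libraries overlap in every class drawn.

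Within the adipogenic CAR-like class, cells were gated by genes other than the 9. Alpl, tissue non-specific alkaline phosphatase, marks the turn towards bone. Rbp4 in Alpl-positive cells was at 49.0 CPM (41.3 to 57.7) in the chase library (415 cells) and 208 CPM (191 to 226) in the pulse library (328 cells). In Alpl-negative cells it was at 27.3 CPM (25.0 to 29.8) in chase (2633 cells) and 126 CPM (121 to 131) in pulse (2750 cells). Alpl-positive cells thus had 1.80 times (1.48 to 2.17) the Rbp4 level of Alpl-negative cells in chase and 1.65 times (1.51 to 1.81) in pulse, both called higher, where 1.64% of 11248 genes in chase and 1.76% of 11447 genes in pulse were.

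Aldh1a2 did not follow Alpl. It was at 178 CPM (163 to 194) in Alpl-positive and 189 CPM (183 to 195) in Alpl-negative chase cells, and at 455 CPM (430 to 481) and 445 CPM (436 to 453) in the pulse library. The ratios were 0.944 (0.860 to 1.04) and 1.02 (0.964 to 1.09). Those of Rarg were 0.986 (0.799 to 1.21) in chase and 1.03 (0.828 to 1.26) in pulse. Of the measured genes of the 9, Rbp4 alone was called between the Alpl gates, 1 of 5 in chase and 1 of 7 in pulse.

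Both genes were lower in chase inside each gate. Rbp4 had a chase over pulse ratio of 0.236 (0.195 to 0.284) in Alpl-positive cells, where 7.94% of 8868 genes were called lower, and 0.217 (0.197 to 0.238) in Alpl-negative cells, where 6.34% of 12174 were. Aldh1a2 had ratios of 0.392 (0.353 to 0.435) and 0.425 (0.409 to 0.441) in the same gates. Cells gated by interferon response genes (132 chase, 52 pulse) had Rbp4 at 34.7 CPM (24.0 to 48.5) in chase and 92.0 CPM (65.4 to 126) in pulse, a ratio of 0.377 (0.231 to 0.613), with 9.07% of 4299 genes called lower. Aldh1a2 in that gate had a ratio of 0.357 (0.288 to 0.441). A gate on the adipocyte genes Mrap, Cfd and Fndc1 held 30 chase and 25 pulse cells, and no ratio is given for it.

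Cells with high Cfd, Kit, Plin1 and Mrap formed a cluster of their own, 313 chase and 338 pulse cells, that stayed unnamed because mature adipocyte markers led it as well as CAR markers. Rbp4 there was at 88.6 CPM (76.9 to 101) in chase and 297 CPM (277 to 318) in pulse, the highest pulse level of any cluster drawn. Over adipogenic CAR-like cells of the same library this was 2.90 times (2.47 to 3.39) in chase and 2.20 times (2.04 to 2.38) in pulse, where 6.47% of 11475 genes and 5.2% of 11619 genes were called higher and 5.25% and 5.19% lower. Aldh1a2 ran the other way, at 65.6 CPM (55.6 to 76.8) in chase and 149 CPM (134 to 164) in pulse. Its ratio over adipogenic CAR-like cells was 0.350 (0.296 to 0.411) in chase and 0.334 (0.302 to 0.368) in pulse. Between the libraries, this cluster had ratios of 0.298 (0.255 to 0.348) for Rbp4 and 0.441 (0.364 to 0.533) for Aldh1a2, and Rara was also called lower, at 29.4 CPM in chase and 46.2 CPM in pulse, a ratio of 0.635 (0.467 to 0.858); 4.27% of 8670 genes were called lower.

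Of the adipogenic clusters, the Rbp4-led and Tnfsf11-led ones differed in Rbp4 more than in Aldh1a2 in the pulse library. The pulse Igfbp5-led and Tnfsf11-led clusters, described below, differed more in Aldh1a2. In the pulse library, the Rbp4-led cluster was at 237 CPM (226 to 248) and the Tnfsf11-led cluster at 95.5 CPM (91.0 to 100.2), a ratio of 2.48 (2.32 to 2.65), while 3.27% of 11379 genes were called higher and 2.93% lower. Aldh1a2 was at 461 CPM in the Rbp4-led cluster and 456 CPM in the Tnfsf11-led cluster, a ratio of 1.01 (0.972 to 1.05). Aldh1a3 had 1.85 times (1.13 to 3.02) the level, 4.23 against 2.29 CPM, and Rarb 0.493 times (0.249 to 0.908), 1.72 against 3.49 CPM. Since Rbp4 itself leads one of these clusters, its value there describes the cluster.

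Inside 2 clusters the Aldh1a2 intervals of the libraries overlapped. In the Fmo2-led cluster, mostly of chase cells, it was at 193 CPM (186 to 199) in chase and 183 CPM (153 to 218) in pulse. In the Igfbp5-led cluster, where median depths were 2937 UMIs in chase and 2228 UMIs in pulse, it was at 174 CPM (157 to 193) in chase and 193 CPM (151 to 243) in pulse. In the Tnfsf11-led cluster, mostly of pulse cells, it was at 191 CPM (155 to 232) in chase and 456 CPM (446 to 466) in pulse. Rbp4 was lower in chase in each of these clusters: 26.4 against 52.4 CPM in the Fmo2-led, 46.4 against 95.1 CPM in the Igfbp5-led and 32.1 against 95.5 CPM in the Tnfsf11-led cluster. The clusters were made from expression, though without these genes, and hold few cells of one library each, 103 and 127 pulse cells in the first 2 and 69 chase cells in the last.

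**Figure D2:**
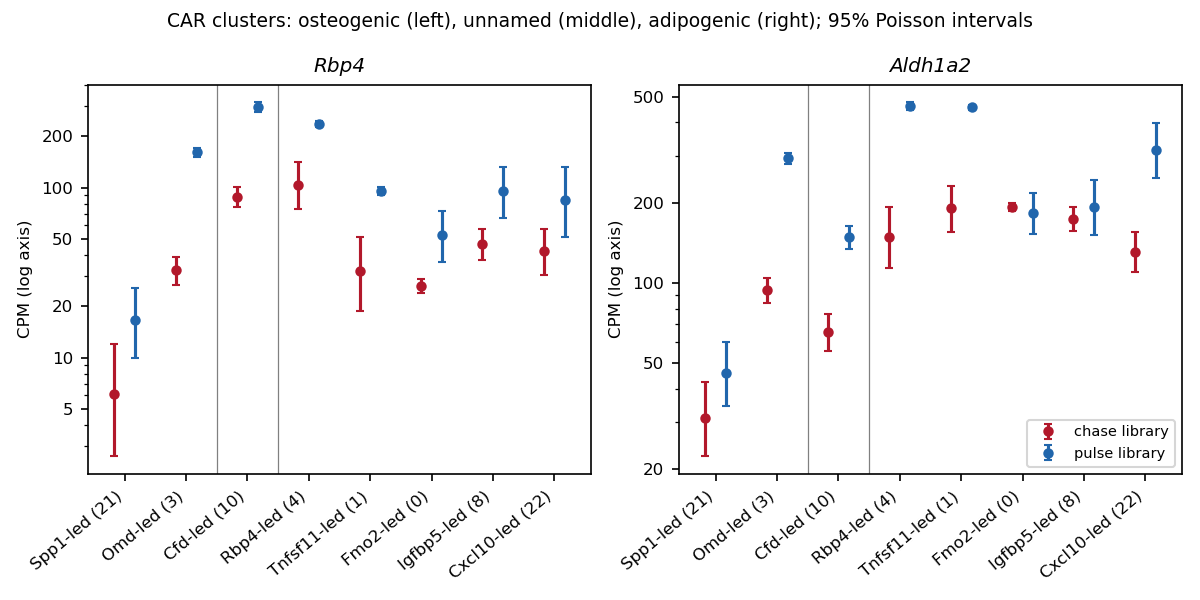
Rbp4 (left panel) and Aldh1a2 (right panel) in CPM (log axes) in CAR clusters named by a leading gene, chase (red, left of each pair) and pulse (blue), 1 library each; bars are 95% Poisson intervals and vertical lines part osteogenic, unnamed and adipogenic clusters. Rbp4 is highest in the Cfd-led cluster of the pulse library (297 CPM), Aldh1a2 in the pulse Rbp4-led and Tnfsf11-led clusters (461 and 456 CPM), and the Aldh1a2 intervals of the libraries overlap in the Fmo2-led and Igfbp5-led clusters.

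Osteogenic CAR-like cells, marked by Alpl, Wif1 and Spp1, had less Aldh1a2 than adipogenic CAR-like cells, and for Rbp4 no ratio was called by class totals. Rbp4 was at 25.1 CPM (20.9 to 29.9) in osteogenic and 30.6 CPM in adipogenic chase cells, a ratio of 0.820 (0.672 to 0.995), and at 143 CPM (135 to 151) and 135 CPM in the pulse library, a ratio of 1.06 (0.995 to 1.13). The Rbp4 ratio depended on the processing and fell on either side of 1, between 0.476 (cells thinned to 2000 UMIs) and 1.29 (mitochondrial limit of 5%) in chase and between 0.494 (no cell filter beyond 1000 UMIs) and 1.47 (doublets kept) in pulse. Aldh1a2 was at 76.0 CPM (68.6 to 84.1) in osteogenic and 187 CPM in adipogenic chase cells, a ratio of 0.406 (0.365 to 0.451). In the pulse library it was at 257 CPM (246 to 268) and 445 CPM, a ratio of 0.577 (0.551 to 0.604). Across all genes, 11.3% of 11743 were called lower and 11.2% higher in chase, and 9.24% of 12037 lower and 10.8% higher in pulse.

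Of the rest, Aldh1a3 was called higher in pulse osteogenic CAR-like cells, at 5.72 CPM (4.23 to 7.56) against 2.77 CPM, a ratio of 2.06 (1.41 to 3.00). In chase its ratio was 1.80 (0.996 to 3.13), not called. Crabp2 was called lower in pulse, with 7 UMIs against 62, a ratio of 0.347 (0.134 to 0.759). The receptors were level, with Rara at ratios of 0.996 (0.837 to 1.18) in chase and 1.00 (0.888 to 1.13) in pulse and Rarg at 0.974 (0.825 to 1.14) and 0.908 (0.792 to 1.04). In all, 1 of 6 measured genes was called in chase and 3 of 7 in pulse.

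Within the osteogenic class, an Spp1-led cluster that also had high Mmp13, Postn and Vdr (116 chase, 77 pulse cells) was low in both genes. Rbp4 was at 6.09 CPM (2.63 to 12) there and 32.6 CPM (26.9 to 39.2) in the Omd-led cluster in chase, a ratio of 0.187 (0.0788 to 0.381). In the pulse library it was at 16.5 CPM (9.95 to 25.8) and 161 CPM (152 to 171), a ratio of 0.103 (0.0615 to 0.161). Aldh1a2 had ratios of 0.333 (0.235 to 0.462) in chase and 0.157 (0.117 to 0.207) in pulse. These lie beside a general shift, since 16.6% of 8522 genes in chase and 28.1% of 9597 genes in pulse were called lower, with median log2 ratios of -0.15 and -0.35.

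Between the libraries, osteogenic CAR-like cells had Rbp4 at 25.1 CPM in chase and 143 CPM in pulse, a ratio of 0.175 (0.144 to 0.211). Aldh1a2 was at 76.0 CPM in chase and 257 CPM in pulse, a ratio of 0.296 (0.265 to 0.330). Rara had a ratio of 0.820 (0.678 to 0.989), Rarg 1.12 (0.924 to 1.35) and Aldh1a3 0.666 (0.371 to 1.15). Thus 2 of 5 measured genes were called lower, where 6.76% of 10845 were. Here too cells split by library: at Leiden resolution 2, an Omd-led cluster with Rbp4 among its leading genes held 8 chase and 254 pulse cells, with Rbp4 at 348 CPM (325 to 372) in the pulse cells. In the other Omd-led cluster, of 409 chase and 454 pulse cells, Rbp4 was at 28.6 CPM (23.0 to 35.1) in chase and 78.5 CPM (69.9 to 87.9) in pulse, and Aldh1a2 at 89.0 CPM in chase and 248 CPM in pulse. Both genes were lower in chase there, with a smaller gap for Rbp4 than in the class as a whole.

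**Figure D3:**
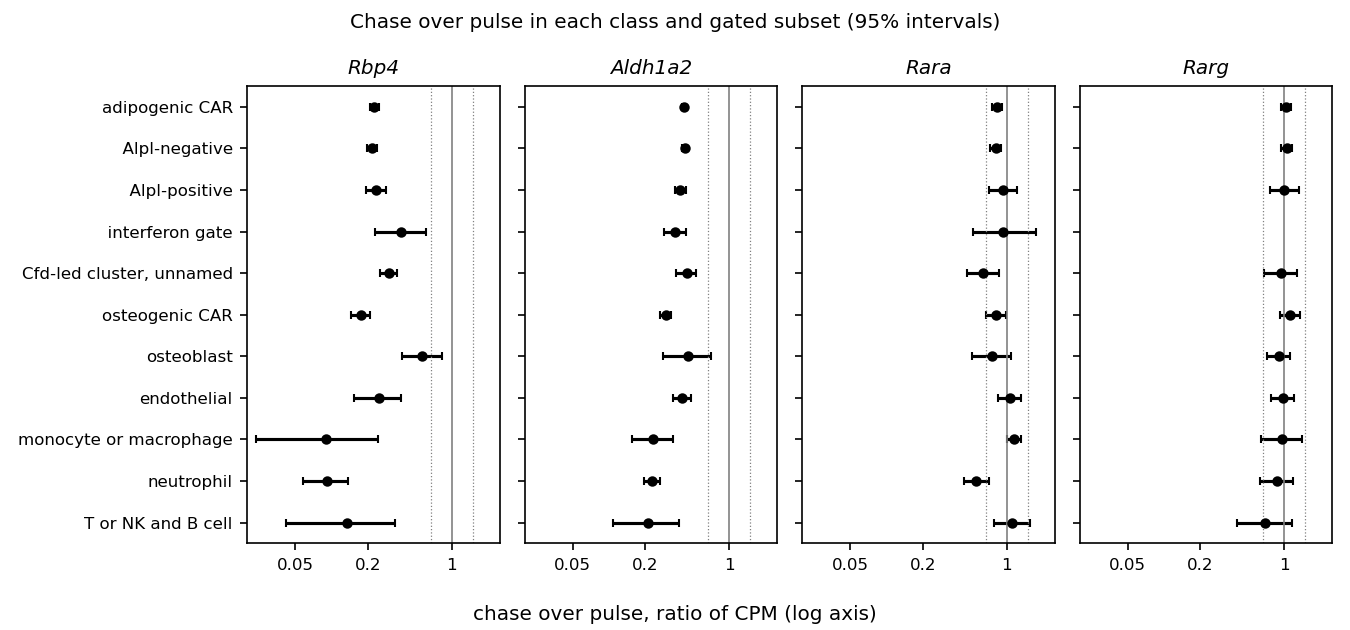
Chase over pulse ratios of CPM (log axes) for Rbp4, Aldh1a2, Rara and Rarg in each class and gated subset; points are ratios of 2 library sums, bars are exact 95% intervals and dotted lines mark 1.5-fold. All Rbp4 and Aldh1a2 points lie below 1, from 0.0902 in monocyte or macrophage-like cells to 0.568 in osteoblast-like cells for Rbp4, while every Rarg interval drawn holds 1. No expression of either gene is read in endothelial-like, monocyte or macrophage-like, neutrophil-like or T, NK and B cells. Their ratios are therefore not separate cases of the lower chase level.

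Osteoblast-like cells, marked by Bglap, had Aldh1a2, Rbp4 and Rara below the adipogenic CAR-like level in both scalings used. Their totals are taken up by a few abundant bone matrix genes (the class's 8 marker genes summed to 219329 CPM in chase and 235986 CPM in pulse), and the median log2 ratio of all genes over adipogenic CAR-like cells was -0.88 in chase and -0.99 in pulse, with 63.0% of 11696 and 68.7% of 11911 genes called lower. Ratios of this class are therefore given also with TMM scaling, which sets most genes level.

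Aldh1a2 was at 4.61 CPM (3.04 to 6.71) in osteoblast-like and 187 CPM in adipogenic CAR-like chase cells, a ratio of 0.0246 (0.0162 to 0.0359), and 0.0443 with TMM. In pulse it was at 10.2 CPM (8.14 to 12.5) and 445 CPM, a ratio of 0.0228 (0.0183 to 0.0282), and 0.0447 with TMM. Rbp4 was at 6.83 CPM (4.88 to 9.30) against 30.6 CPM in chase, a ratio of 0.223 (0.158 to 0.307), and 0.402 with TMM, and at 12 CPM (9.82 to 14.6) against 135 CPM in pulse, a ratio of 0.0892 (0.0726 to 0.109), and 0.175 with TMM. Both genes thus lay below the general shift in either scaling.

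The receptors parted in this class. Rara was at 7.85 CPM (5.75 to 10.5) against 33.8 CPM in chase and 10.4 CPM (8.35 to 12.8) against 40.9 CPM in pulse, with ratios of 0.232 (0.168 to 0.313) and 0.254 (0.202 to 0.316), or 0.418 and 0.498 with TMM. Rarg was at 22.2 CPM (18.5 to 26.3) against 37.7 CPM in chase and 24.6 CPM (21.4 to 28.2) against 36.1 CPM in pulse, with ratios of 0.589 (0.485 to 0.709) and 0.682 (0.585 to 0.793), which turned to 1.06 and 1.34 with TMM. Rarb ratios were 0.329 (0.128 to 0.709) and 0.283 (0.110 to 0.612) on 7 UMIs in each library, or 0.592 and 0.555 with TMM. By class totals, 5 of 5 measured genes were called lower in chase and 5 of 7 in pulse, where 63.0% and 68.7% of all genes were, and the remaining 4 genes in chase and 2 in pulse were not measured. The count in pulse is close to that share over all genes.

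Between the libraries, osteoblast-like cells had 40 Rbp4 UMIs in chase and 103 in pulse, a ratio of 0.568 (0.384 to 0.825), and 27 and 87 Aldh1a2 UMIs, a ratio of 0.454 (0.283 to 0.706). Rara at 0.756 (0.517 to 1.09) and Rarg at 0.901 (0.718 to 1.13) were not called. This is 2 of 4 measured genes lower, with 3.02% of 9229 lower. By class totals, Aldh1a2 here was at 4.61 CPM in chase and 10.2 CPM in pulse. Those levels did not exceed the 4.83 and 23.0 CPM of T, NK and B cells. Pulse Rbp4, at 12 CPM, also lay below the 13.8 CPM of those cells. Chase Rbp4 lay above, at 6.83 against 1.86 CPM. Osteoblast-like cells were far deeper than T, NK and B cells, at medians of 19515.5 UMIs in chase and 23308 UMIs in pulse. A comparison in CPM therefore does not compare carried-over UMIs per cell. How much of these osteoblast-like counts was carried over was not tested.

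Endothelial-like cells, marked by Cdh5 at 939 CPM in chase and 1052 CPM in pulse, had less Rbp4 and Aldh1a2 than adipogenic CAR-like cells. As a class, they had Rara and Rarg near the adipogenic CAR-like level. Aldh1a2 was at 41.7 CPM (35.9 to 48.2) in endothelial-like and 187 CPM in adipogenic CAR-like chase cells, a ratio of 0.223 (0.191 to 0.259), and at 103 CPM (94.5 to 113) and 445 CPM in pulse, a ratio of 0.232 (0.212 to 0.255). The class was not uniform. At Leiden resolution 2, a Cfd-led part (142 chase, 119 pulse cells) had Aldh1a2 at 98.4 CPM in chase and 271 CPM in pulse, and the main Ackr1-led part (250 chase, 314 pulse cells) at 21.7 and 47.8 CPM. A smaller Ly6c1-led part (79 chase, 58 pulse cells), left unnamed at that resolution, had a higher Rarg level in both libraries. Its Rarg was at 71.3 CPM in chase and 73.4 CPM in pulse, against 37.7 and 36.1 CPM in adipogenic CAR-like cells. Its Rara was at 56.2 and 48.3 CPM, against 33.8 and 40.9 CPM, a smaller gap in pulse. Ratios and intervals of this part were not computed, so neither receptor is called. For the class as a whole, Rbp4 ratios over adipogenic CAR-like cells were 0.196 (0.127 to 0.290) in chase and 0.180 (0.148 to 0.217) in pulse. Rara ratios were 1.11 (0.931 to 1.32) and 0.864 (0.730 to 1.02), and Rarg ratios were 0.972 (0.815 to 1.15) and 1.04 (0.884 to 1.23). Thus 2 of 6 measured genes in chase and 2 of 7 in pulse were called lower, where 19.8% of 11952 and 21.2% of 12087 genes were. Between the libraries, Rbp4 was at 5.99 CPM in chase and 24.3 CPM in pulse (ratio 0.247, 0.155 to 0.381) and Aldh1a2 had a ratio of 0.403 (0.338 to 0.479), 2 of 4 measured genes called lower where 2.89% of 10208 were.

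**Figure D4:**
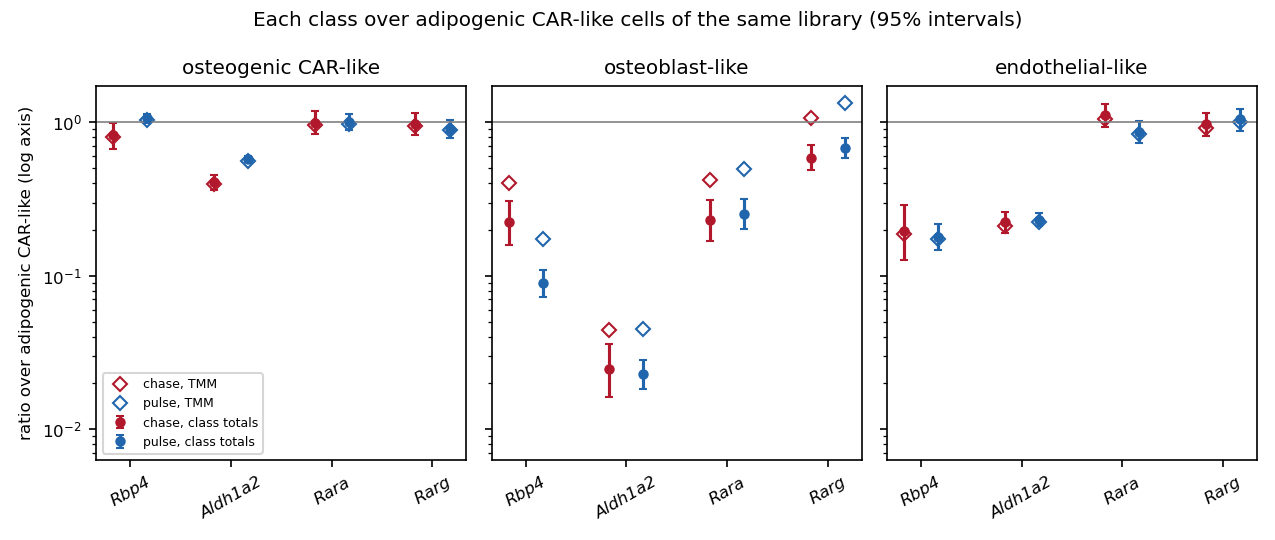
Ratios of osteogenic CAR-like, osteoblast-like and endothelial-like cells over adipogenic CAR-like cells of the same library (log axis) for 4 genes, chase (red, left of each pair) and pulse (blue); filled points use class totals with exact 95% intervals, open diamonds TMM scaling. Aldh1a2 is below 1 in all 3 classes, and Rarg in osteoblast-like cells is below 1 by class totals (0.589 in chase, 0.682 in pulse) and above 1 with TMM (1.06 and 1.34).

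Transcripts of adipogenic CAR-like cells were found in cells that should lack them. Adipoq in endothelial-like cells stood at 22.9% of its adipogenic CAR-like level in chase and 21.4% in pulse. At those shares, and in the proportion that Aldh1a2 bears to Adipoq in adipogenic CAR-like cells, 43.0 CPM of Aldh1a2 would stand in chase and 95.2 CPM in pulse endothelial-like cells, and the observed level was 0.971 and 1.09 times that. Rbp4 was at 0.854 and 0.842 times. The Cfd-led part of the class had Adipoq at 55.4% of the adipogenic level in chase and 58.3% in pulse, and the Ackr1-led part at 10.8% and 8.89%. Aldh1a2 was at 0.949 and 1.04 times its Adipoq-based level in the Cfd-led part and at 1.07 and 1.21 times in the Ackr1-led part. The endothelial levels of both genes were therefore of the size that the Adipoq level alone gives, and no endothelial expression is read from them.

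The same reckoning gave more than Adipoq predicts in osteogenic CAR-like and osteoblast-like cells. Adipoq was at 482 CPM in chase and 624 CPM in pulse osteogenic CAR-like cells. Whether it was their own or carried over was not tested, so their values here do not measure an excess over carried RNA. Rbp4 was 3.46 times its Adipoq-based level in chase and 3.19 times in pulse osteogenic CAR-like cells, and 15.7 and 5.52 times in osteoblast-like cells. Aldh1a2 was 1.71 and 1.73 times in osteogenic CAR-like cells and 1.74 and 1.41 times in osteoblast-like cells, where the counts were 27 and 87 UMIs. The osteoblast-like Aldh1a2 levels in CPM did not exceed those of T, NK and B cells in either library. Because osteoblast-like cells were much deeper, that comparison cannot settle whether they express Aldh1a2, and no expression is read from it. In T, NK and B cells Aldh1a2 was at 1.28 and 0.909 times and Rbp4, on 5 and 46 UMIs, at 3.02 and 1.79 times.

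Rbp4 and Aldh1a2 were lower in chase also where they stood at background. In T, NK and B cells the chase over pulse ratios were 0.135 (0.0419 to 0.339) and 0.210 (0.107 to 0.381), where 10.2% of 8691 genes were called lower. In the same cells Adipoq was at 40.9 CPM in chase and 106 CPM in pulse, whereas in adipogenic CAR-like cells it was at 2034 CPM in chase and 1872 CPM in pulse. These background levels were 1.86 CPM in chase and 13.8 CPM in pulse for Rbp4, and 4.83 and 23.0 CPM for Aldh1a2. With them subtracted, the adipogenic CAR-like ratio was 0.237 for Rbp4 and 0.432 for Aldh1a2. The mitochondrial genes summed to 32877 CPM in chase and 32510 CPM in pulse adipogenic CAR-like cells, ribosomal protein genes to 68698 and 85588 CPM, and 10 immediate early genes to 30309 and 22676 CPM. The part of these 3 sums in the results was not tested.

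**Figure D5:**
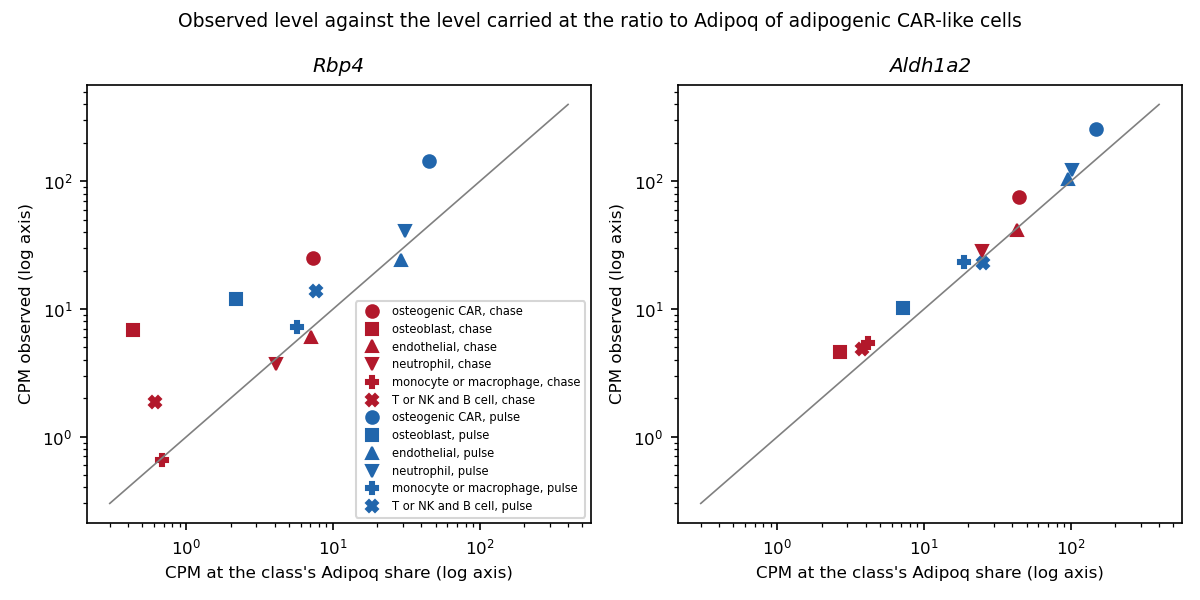
Observed level of Rbp4 and Aldh1a2 against the level given by the class's Adipoq and the proportion to Adipoq in adipogenic CAR-like cells of the same library (CPM, log axes), chase (red) and pulse (blue); the line marks equality and each point is 1 class of 1 library. Endothelial-like cells lie on the line for both genes (0.971 and 1.09 times for Aldh1a2), and osteogenic CAR-like and osteoblast-like cells lie above it for Rbp4 (3.46 and 15.7 times in chase). T, NK and B cells, which should lack Rbp4, also lie above it for that gene, at 3.02 times in chase.

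Across classes, Rara was highest in monocyte or macrophage-like cells, at 67.7 CPM (61.3 to 74.5) in chase and 58.9 CPM (53.4 to 64.7) in pulse, above the stromal classes beyond the intervals and lowest in osteoblast-like cells among the 4 stromal and endothelial classes. Rarg was at 32.8 to 37.7 CPM in the CAR and endothelial classes, whose intervals overlap, then at 22.2 and 24.6 CPM in osteoblast-like cells, and at 8.18 and 8.51 CPM in chase and pulse monocyte or macrophage-like cells. Pulse osteocyte-like cells, 69 in number, had Rarg at 32.7 CPM, near the CAR classes. The 25 chase pericyte or smooth muscle-like cells had it at 24.2 CPM. T or NK-like cells, at 14.1 CPM (8.82 to 21.3) in chase and 20.5 CPM (13.9 to 29.1) in pulse, overlapped osteoblast-like cells, as did 21 pulse basophil or mast-like cells at 19.9 CPM on 3 UMIs. Neutrophil-like cells had Rara at 15.0 CPM in chase and 26.7 CPM in pulse, a ratio of 0.561 (0.440 to 0.710), called lower where 15.5% of 10369 genes were.

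Over the 22 sums of 11 classes by 2 libraries, the 9989 genes with at least 20 CPM in some class were ranked by Pearson correlation of log2(CPM + 5) with each of the 9 that had such a level. The genes most like Rbp4 were Sod3 (r = 0.956), Tpm2, Myl9, Fah and Adamts15. Those most like Aldh1a2 were the fibrillin gene Fbn1 (r = 0.981), Prss23, Col5a3, Loxl1 and Wdr86. Aldh1a1 was followed by the erythroid genes Btnl10 (r = 0.998), Slc38a5, Epb42, Kel and Slc25a21, Rara by Hps4 (r = 0.927), Vhl, Tor1aip1, Tmem50a and Tmbim6, and Rarg by Farp1 (r = 0.954), Zhx3, Eva1b, Eid2 and Rtl8b. These are descriptions, since sums of 1 library share cells, depth and free RNA.

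Of 75 other genes of the pathway in 6 lists, 45 were measured in adipogenic CAR-like cells between the libraries, of which 4 were called higher and 2 lower in chase, where 7.47% and 6.31% of all genes were, so that the counts lie near the share over all genes. Their median log2 ratio was 0.07, against -0.02 over all genes. In the response list, Rarres2 (chemerin) was at 521 CPM in chase and 336 CPM in pulse, a ratio of 1.55 (1.51 to 1.60). Bhlhe40, a transcription factor inducible by retinoic acid, was at 47.1 and 21.8 CPM, a ratio of 2.16 (1.95 to 2.40). Egr1, itself 1 of the immediate early genes summed above, had a ratio of 1.56 (1.54 to 1.57). In the retinol dehydrogenase list, Adh1 was at 17.3 CPM in chase and 27.9 CPM in pulse, a ratio of 0.618 (0.544 to 0.701). The remaining calls, Rdh5 higher and Rdh13 lower, were below 20 CPM. Of the receptor partners and cofactors, 15 were measured and none was called.

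In osteogenic CAR-like cells 4 of 41 measured pathway genes were called higher and 3 lower in chase, where 5.56% and 6.76% of all genes were. Dhrs3, which turns retinal back to retinol, was at 120 CPM in chase and 70.4 CPM in pulse, a ratio of 1.70 (1.51 to 1.91). Dhrs4 was at 27.7 and 46.1 CPM (0.6, 0.491 to 0.731). In osteoblast-like cells 7 of 35 were called higher and none lower, against 6.87% and 3.02% of all genes, with Dhrs3 among them at 30.6 and 19.6 CPM (1.56, 1.25 to 1.93), a ratio that was 1.49 with TMM. In endothelial-like cells 0 of 41 were called higher and 1 lower, Rdh10 at 9.68 CPM in chase and 14.9 CPM in pulse, where 4% and 2.89% of all genes were.

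Single genes of retinoid handling differed in RNA level between the classes. Cyp26b1, which degrades retinoic acid, had 88 UMIs, 15.0 CPM, in chase osteoblast-like cells against 9 UMIs, 0.414 CPM, in chase adipogenic CAR-like cells, a ratio of 36.3 (18.3 to 81.9), and 65.3 with TMM. In pulse it had 117 UMIs, 13.7 CPM, against 15 UMIs, 0.569 CPM, a ratio of 24.0 (14.0 to 44.2), and 47.0 with TMM. Pulse osteocyte-like cells had 90 UMIs, 68.4 CPM, the highest level of the classes looked at. Cyp26b1 is below the 20 CPM set for naming genes in osteoblast-like cells and was picked after its values were seen, as the clearing enzyme of the pathway.

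Dhrs3 was at 30.6 CPM in osteoblast-like cells against 151 CPM in adipogenic CAR-like cells in chase and 19.6 against 145 CPM in pulse, with ratios of 0.203 (0.173 to 0.236) and 0.135 (0.115 to 0.158), or 0.365 and 0.265 with TMM. The fatty acid binding protein Fabp5, which can also carry retinoic acid, was higher, at 25.6 against 14.3 CPM in chase (1.79, 1.46 to 2.18) and 29.9 against 16.1 CPM in pulse (1.85, 1.58 to 2.17), or 3.22 and 3.63 with TMM. In all 2 of 46 were called higher and 37 lower in chase, where 7.93% of all genes were called higher and 63% lower. In pulse 3 of 46 were called higher and 37 lower, where 7.73% and 68.7% of all genes were. Their median log2 ratios were -1.27 and -1.56, beside -0.88 and -0.99 over all genes.

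In the transport and storage list, 5 of 7 measured genes were called higher and 1 lower in endothelial-like cells in each library, with median log2 ratios of 2.53 in chase and 2.36 in pulse, beside 0.07 and 0.04 over all genes. The gene called lower in both was Lrp1, a lipoprotein receptor gene, at 85.3 CPM against 353 CPM in adipogenic CAR-like cells in chase (0.241, 0.217 to 0.268) and 104 against 475 CPM in pulse (0.220, 0.200 to 0.240). The scavenger receptor gene Scarb1 was at 127 CPM against 9.30 CPM in adipogenic CAR-like cells in chase (13.7, 11.6 to 16.1) and 114 against 9.19 CPM in pulse (12.4, 10.6 to 14.5). Rbp7, a retinol binding protein of endothelium, had 133 UMIs in chase and 175 in pulse, against 0 and 5 UMIs in the larger adipogenic class. Cd36 was at 400 against 0.967 CPM in chase and 477 against 0.911 CPM in pulse. Of the partner receptors and carriers, Nr2f2 was at 495 against 47.9 CPM in chase (10.3, 9.60 to 11.1) and 485 against 34.2 CPM in pulse (14.2, 13.1 to 15.3). In the response list, Tgm2, a retinoic acid responsive transglutaminase, was at 330 against 108 CPM in chase (3.06, 2.87 to 3.27) and 346 against 104 CPM in pulse (3.32, 3.12 to 3.53). Over all 6 lists 12 of 47 were called higher and 11 lower in chase, where 21.9% and 19.8% of all genes were, and 16 and 11 in pulse, where 22.8% and 21.2% were.

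Between the CAR classes, the cytochrome P450 gene Cyp1b1 was lower in osteogenic cells, at 430 against 767 CPM in chase (0.560, 0.536 to 0.586) and 388 against 629 CPM in pulse (0.616, 0.593 to 0.640). Rarres2 was at 139 against 521 CPM in chase (0.267, 0.247 to 0.289) and 164 against 336 CPM in pulse (0.487, 0.460 to 0.515). Dhrs3 was called lower in pulse only, at 70.4 against 145 CPM (0.485, 0.445 to 0.529), and the difference between libraries was not tested. In all 4 of 45 were called higher and 9 lower in chase, where 11.2% and 11.3% of all genes were, and 4 and 7 in pulse, where 10.8% and 9.24% were. The retinol receptor gene Stra6 gave 1 UMI in each library in osteogenic CAR-like cells and 0 in the other 3 classes, and the retinol esterifying enzyme Lrat and the plasma partner of Rbp4, Ttr, gave 0 in all 4 classes.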

How the data were processed

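The authors deposited raw UMI counts for 2 libraries, as whole numbers, from 10046 chase and 10608 pulse barcodes with at least 500 UMIs and 82939659 and 89009901 UMIs in all. Libraries were made with the 10x 3' kit version 3.1 per the labels' protocols. The file headers name Cell Ranger 6.0.2 and the submitters' processing notes 2.1.1 (build mm10); which made these counts was not settled. Cells had at least 500 genes, 1000 UMIs and under 10% mitochondrial UMIs (8445 chase, 9390 pulse), and Scrublet in scanpy 1.11.5 removed 110 and 178 doublets, so some are likely to remain. Both libraries were clustered jointly, without integration (2000 variable genes, 30 components, 15 neighbours, Leiden resolution 1, leidenalg 0.10.2). Cluster names rest on markers for 21 types of cell, counted at 20 CPM and 2-fold over other clusters, at least 3 per name. Alpl gates split cells at 1 UMI, the interferon gate at 4 summed UMIs and the adipocyte gate at 2, after thinning to 2000 UMIs. Counts were summed per class and library; ratio intervals are exact and conditional on the summed count, shares have exact Clopper-Pearson intervals (SciPy 1.17.1), a count of 0 allows up to 3 UMIs, and TMM factors came from edgeR 4.0.16. The ratio code was tested on simulated counts. With 1 library per group no test across samples was run. Pathway genes were named when called with at least 20 CPM on the higher side, up to 4 per list by size of the ratio; genes like a member are the 5 of highest correlation. Rdh5, Rdh13, Rdh10, Cyp26b1, Stra6, Lrat, Ttr and the genes of calls outside this rule were named after their values were seen, and 1 pathway gene is counted in its list but not reported here. The 9 genes, the lists and the markers were chosen with earlier results of these data known, and 2 of the 9, Rbp4 and Aldh1a1, would have been variable genes. Gene positions are from GENCODE M21 (GRCm38).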

Additional observations from a re-analysis of the deposited data

How the results depend on the processing

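No paired analysis was possible because each group is 1 library. Rbp4 and Aldh1a2 stayed lower in chase in adipogenic CAR-like cells under all 14 other settings that gave a ratio: Rbp4 ratios ran between 0.197 and 0.282 and Aldh1a2 ratios between 0.414 and 0.432. For Rbp4, the ratio was 0.282 when thinned to 2000 UMIs, 0.256 with doublets kept, 0.197 with no cell filter beyond 1000 UMIs and 0.259 with libraries clustered separately. Members called between the libraries, 2 in the main analysis, were 1 (mean over cells) and 0 (free RNA level subtracted, and thinned) in osteoblast-like cells, and 1 (thinned, and marker gates in place of clusters) in endothelial-like cells. In osteogenic over adipogenic CAR-like cells of chase, 1 call became 2 with the mean over cells, free RNA subtracted, thinning or the Cfd-led cluster added to the adipogenic class (an alternative chosen after seeing the data), and 0 with marker gates; in pulse, 3 became 1 with thinning, doublets kept, a mitochondrial limit of 5% or marker gates. In osteoblast-like over adipogenic CAR-like cells, 5 became 3 in chase with TMM, subtraction or thinning and 3 in pulse with subtraction, and Rarg turned from 0.589 to 1.06 with TMM in chase. Pathway genes called between the libraries in endothelial-like cells were 2 with a minimum of 10 UMIs and 0 with TMM, against 1, and in chase osteoblast-like over adipogenic CAR-like cells 23 with TMM. The causes were not tested. Of 1058 values recomputed under another setting, 897 stayed within the interval, or for counts within 1.5 times, of the main value, 160 moved beyond it and 1 reversed. Subtracting the level of lymphocytes removes real Rara transcripts, which those cells hold. At these counts, differences under 3 CPM, and those of Crabp1, Aldh1a1 in stroma and Rarb between classes, are at or near the limit of depth.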
